A study of Oryza sativa with 16 samples.

Results

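ETR2 (LOC4335058) encodes an ethylene receptor of rice. On the Affymetrix rice array it is read by 2 probe sets, called first and second here and named in full in the plot of values by array. They are all probe sets that the platform annotation gives to this gene, out of 57194 rice probe sets and 17905 annotated genes. The array was used on whole seedlings of Oryza sativa subspecies indica, variety IR64, grown in water culture for 7 days with 14 h of light and 10 h of darkness. Seedlings then spent 3 h in a solution of the auxin IAA (indole-3-acetic acid) at 50 µM, the cytokinin BAP (benzyl aminopurine) at 50 µM, ABA (abscisic acid) at 100 µM, ACC (1-aminocyclopropane-1-carboxylic acid) at 100 µM, SA (salicylic acid) at 100 µM or JA (jasmonic acid) at 100 µM, or in water. Each hormone had 2 arrays from 2 biological replicates, and water had 2 such sets, control1 and control2, which made 16 arrays in 8 groups. The labels tie no hormone to a control set, so each hormone is compared with all 4 control arrays and, where it matters, with each set alone.

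Ethylene receptors sit in the endoplasmic reticulum membrane and repress the ethylene response as long as they hold no ethylene. Binding of the gas switches them off, which releases the membrane protein EIN2 and, through it, transcription factors of the EIN3 family. ACC is the direct precursor of ethylene and is turned into the gas by ACC oxidase in the tissue. In Arabidopsis the transcripts of some receptor genes rise after ethylene. Rice has the receptors ERS1 and ERS2 of subfamily I and ETR2, ETR3 and ETR4 of subfamily II. ETR2 is known in rice for effects on flowering time and starch in the stem.

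Values are the deposited log2 values, 1 per probe set and array, with array medians between 2.94 and 3.09. The 5' minus 3' signal of the added poly-A transcripts was -1.44 to -1.06 log2 units in the IAA, BAP and control1 arrays. In the ABA, ACC, SA, JA and control2 arrays it was -1.03 to -0.55. The 3' minus 5' signal of actin was 3.02 to 3.82 in the former arrays and 4.03 to 4.82 in the latter. The former and latter arrays thus overlapped in neither signal, though the poly-A ranges nearly met. No label names a batch. Both parts of a seedling were present on every array: the 4 measured shoot marker genes averaged between 12.71 and 13.58, and the 4 measured root marker genes between 8.93 and 11.74. For ETR2 the control sets lay together, with control2 at 9.78 ± 0.13 and control1 at 9.75 ± 0.09 (SD, n = 2 each) for the first probe set. Their difference was 0.03 log2 units with a 95% interval of -0.24 to 0.30 (adjusted p = 0.896, limma), in a comparison in which 21.1% of the 24100 tested probe sets passed. Here and below an adjusted p is limma's with Benjamini-Hochberg adjustment over all tested probe sets, the threshold is 0.05, and a probe set was tested if its value was above 5 in at least 2 arrays.

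ETR2 rose under ACC by the first probe set, and the second, which passed 5 only in the ACC arrays, moved the same way. The first probe set read 11.19 and 11.20 in the ACC arrays, against 9.68, 9.82, 9.87 and 9.69 in the control arrays. Both ACC arrays lay above every other array of the series. The change was 1.43 ± 0.11 log2 units (SE, n = 2 ACC and 4 control arrays), or 2.70-fold with a 95% interval of 2.29 to 3.18, and its adjusted p was 0.00019. The second probe set read 6.80 and 7.02 in the ACC arrays, against 3.53, 3.51, 3.35 and 3.67 in the control arrays. It rose by 3.39 ± 0.20 log2 units, or 10.5-fold with an interval of 7.82 to 14.1 (adjusted p = 1.78e-05). Its control arrays lay under the floor of 5, so this size depends on how the lowest values were corrected, and it entered the test only through its 2 ACC arrays. Tested with no filter on low values, it kept an adjusted p of 7.26e-06. The deposited values come from whole seedlings, in which more cells of a type and more RNA per cell cannot be told apart.

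**Figure D1:**
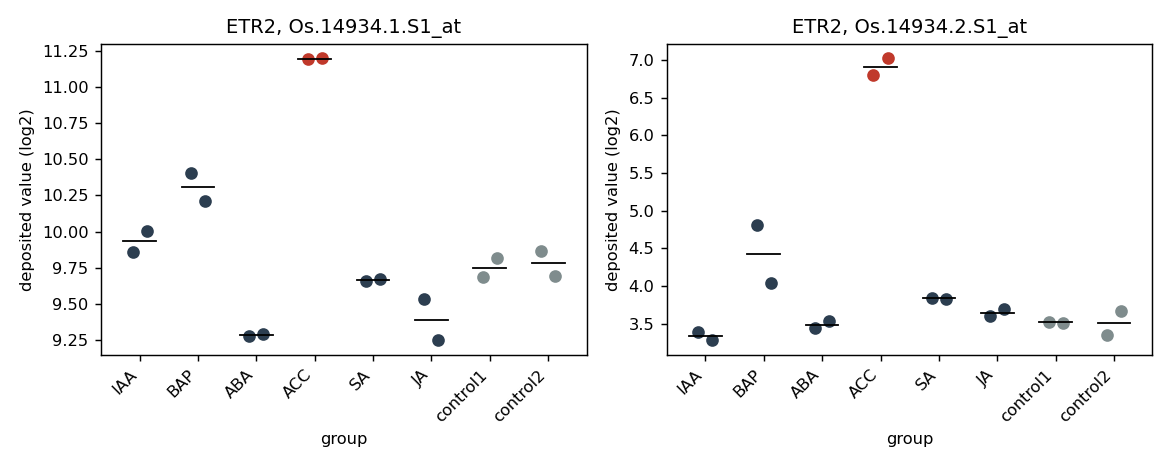
Deposited log2 value of the 2 ETR2 probe sets in each of the 16 arrays, by group, hormones to the left and the water controls to the right. Points are arrays and bars group means, and the vertical axes do not start at 0. The ACC arrays stand above all others in both panels, at 11.19 and 11.20 and at 6.80 and 7.02.

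Of the 24100 probe sets tested under ACC, 0.614% passed the threshold, 71 higher and 77 lower. This count of 148 was 5767 against control1 alone, 82 against control2 alone, 3628 with array weights, and 15 (without ACC replicate 1) to 455 (without control2 replicate 1) when 1 array was left out. Ordered by p, the second ETR2 probe set was in place 1 and the first in place 2. The place of the second rests on control values under the floor. Among those that passed, 30 probe sets had a larger rise than the first ETR2 probe set. Ordered by change over all tested probe sets, passing or not, the first was in place 151. Both probe sets passed against either control set alone. The first rose by 1.45 log2 units against control1 (adjusted p = 3.81e-05) and by 1.42 against control2 (adjusted p = 0.000839), and the second by 3.39 (adjusted p = 8.69e-06) and 3.40 (adjusted p = 8.69e-05). In a fit of the ACC and control arrays alone the first probe set had the same change but an adjusted p of 0.0964. There 1 probe set in all passed, the second of ETR2 (adjusted p = 0.00799), which was tested only through its ACC arrays. The shoot and root marker lists had 0 of 4 genes passing in either direction under ACC, and the root markers averaged 11.48 and 11.49 on the ACC arrays, against 10.95 to 11.74 on the control arrays. The shoot markers averaged 12.71 and 13.28 on the ACC arrays, against 13.05 to 13.42 on the control arrays, and the 12.71 was the lowest of the 16 arrays. The part of the shoot markers in the ACC values was not tested.

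**Figure D2:**
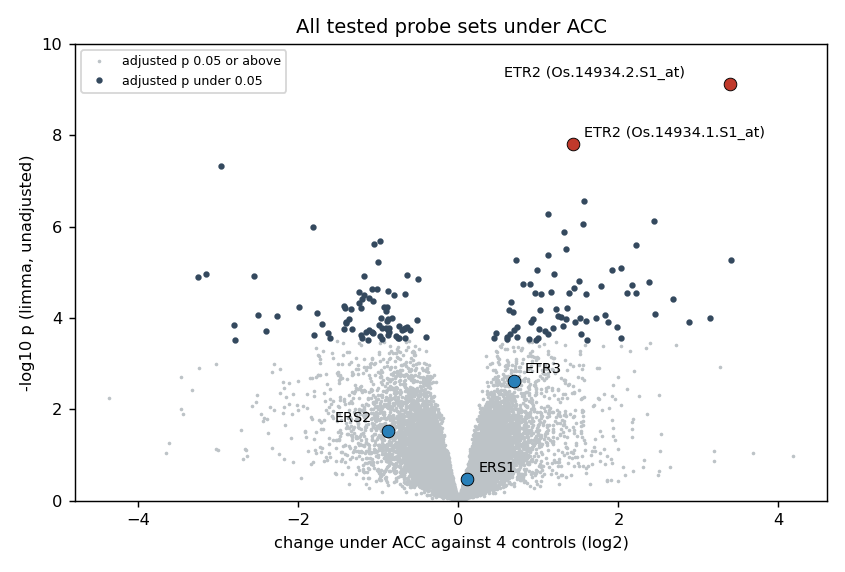
Change under ACC against the 4 control arrays (log2, horizontal) and unadjusted limma p (-log10, vertical) for each tested probe set. Grey points did not pass, dark points passed, red points are the ETR2 probe sets and blue points the other tested ethylene receptors. The ETR2 probe sets are the highest points of the plot, at 1.43 and 3.39 log2 units.

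The level of ETR2 under ACC was also compared directly with that under each other hormone, a set of 5 comparisons chosen with the values known. The first probe set was higher under ACC than under IAA by 1.26 ± 0.12 log2 units (adjusted p = 0.000159), in a comparison in which 19.9% of probe sets passed. Against BAP it was higher by 0.89 ± 0.12 (adjusted p = 0.00333, 9.28% of probe sets), and against ABA by 1.91 ± 0.12 (adjusted p = 3.22e-07, 40.7%). Against SA the difference was 1.53 ± 0.12 (adjusted p = 3.98e-05, 4.16%) and against JA 1.81 ± 0.12 (adjusted p = 1.45e-05, 3.28%). The second probe set was under the floor in all 5 other hormones, so no size of its differences is read. Against the mean of the other 5 hormones ETR2 was higher under ACC by 1.48 ± 0.10 for the first probe set (adjusted p = 1.83e-05), where 11.8% of probe sets passed.

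BAP came next. The first probe set read 10.41 and 10.21 in the BAP arrays, above the 4 control arrays, and the second read 4.81 and 4.05, also above them. The change was 0.55 ± 0.11 log2 units for the first (adjusted p = 0.0306) and 0.91 ± 0.20 for the second (adjusted p = 0.0466), in a comparison in which 1.29% of all tested probe sets passed and 0.817% of all passed as higher. Every BAP and control value of the second probe set lay under the floor. Against control1 alone the first differed by 0.56 with an adjusted p of 0.062 and the second by 0.91 with an adjusted p of 0.114, so neither passed there. The second was at 0.53 without BAP replicate 1 (adjusted p = 0.258) and at 1.29 without BAP replicate 2 (adjusted p = 0.0236). Root markers moved with BAP: 2 of 4 fell and 0 rose, and their mean was 10.0 to 10.2 in the BAP arrays, against 10.95 to 11.74 in the control arrays. Their part in the change of ETR2 was not tested.

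ABA gave the lowest group mean of the first ETR2 probe set. It read 9.27 and 9.29 in the ABA arrays, below all 4 control arrays, a change of -0.48 ± 0.11 log2 units (adjusted p = 0.00291), which held against control1 alone (-0.47, adjusted p = 0.00756) and control2 alone (-0.50, adjusted p = 0.00566). ABA changed 48.1% of all probe sets, 26.9% as lower, so a fall of this kind was common among the genes tested. The second probe set read 3.45 and 3.53 under ABA, inside the range of the control arrays, a difference of -0.03 ± 0.20 (adjusted p = 0.929). Of the 4 root markers 3 fell and 1 rose under ABA, and their mean was 8.93 to 9.29, against 10.95 to 11.74 in the control arrays. The shoot markers moved as well, with RCA (-1.17, adjusted p = 0.000462) and RBCS (-0.60, adjusted p = 0.0116) lower, NYC1 higher (3.18, adjusted p = 1.73e-06) and CAB2R at -0.20 (adjusted p = 0.0597). The part of either list in the fall of ETR2 was not tested.

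Under JA, SA and IAA neither probe set passed. The JA arrays read 9.53 and 9.25 with the first probe set, both below the control arrays, a change of -0.38 ± 0.11 log2 units (adjusted p = 0.0646, 5.96% of probe sets passing). It was -0.52 without JA replicate 1 (adjusted p = 0.0457) and -0.23 without JA replicate 2 (adjusted p = 0.612). The SA arrays read 9.66 and 9.67, just under the lowest control array, a change of -0.10 with a 95% interval of -0.34 to 0.13 (adjusted p = 0.61, 9.2% passing). The IAA arrays read 9.86 and 10.01 and overlapped the controls, a change of 0.17 with an interval of -0.07 to 0.40 (adjusted p = 0.385, 4.14% passing). The second probe set stayed under the floor on all arrays of these hormones, with values between 3.28 and 3.85.

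**Figure D3:**
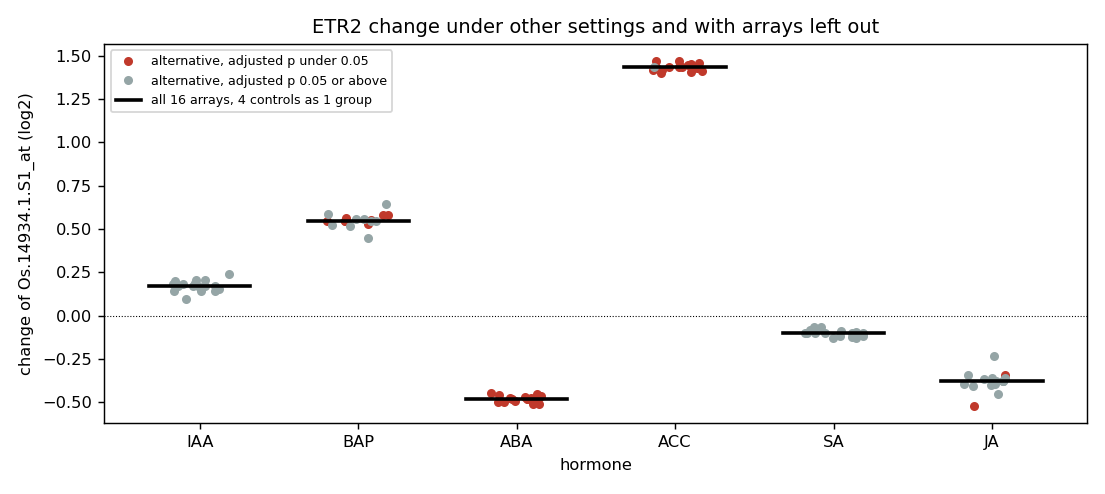
Change of the first ETR2 probe set under each hormone (log2). The black bar is the change against the 4 controls in the fit of all 16 arrays, and points are other settings and fits without 1 array, red where the adjusted p was under 0.05. The ACC points lie between 1.40 and 1.47, grey in the fit of the treated and control arrays alone, and the ABA points between -0.51 and -0.45. Those of BAP, between 0.45 and 0.64, are of both colours, as are those of JA.

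The order of the 8 groups by the first probe set was ACC (11.20), BAP (10.31), IAA (9.93), control2 (9.78), control1 (9.75), SA (9.66), JA (9.39) and ABA (9.28). Pairs of neighbours were taken from this order, so the values themselves fixed the pairs and the direction of each difference. Their p and intervals are descriptive. Among the 7 pairs of neighbours 1 differed past the threshold, ACC above BAP. That difference was 0.89 log2 units with a 95% interval of 0.62 to 1.16 (adjusted p = 0.000512 in the fit with the control sets apart, 26.1% of probe sets passing). The next gap, BAP above IAA, was 0.38 with an interval of 0.10 to 0.65 (adjusted p = 0.118, 5.67% passing). SA lay above JA by 0.27 with an interval of 0.00 to 0.55 (adjusted p = 0.197, 10.7% passing). The other neighbours were IAA over control2 (0.15, interval -0.12 to 0.43, adjusted p = 0.378), control1 over SA (0.09, interval -0.19 to 0.36, adjusted p = 0.65) and JA over ABA (0.11, interval -0.16 to 0.38, adjusted p = 0.51), in comparisons in which 31.6%, 28.7% and 48% of probe sets passed. For the second probe set the ACC mean was 6.91, and the other 7 group means lay under the floor, between 3.33 and 4.43, and are given no order.

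The other ethylene receptor genes did not pass under ACC. ETR3, the other subfamily II receptor that was tested, read 10.65 and 11.26 in the ACC arrays, against 10.26, 10.23, 10.11 and 10.47 in the control arrays. The groups did not overlap, and the change was 0.69 ± 0.18 log2 units (adjusted p = 0.113). It was 0.71 against control1 (adjusted p = 0.0281) and 0.67 against control2 (adjusted p = 0.26), and against the mean of the other 5 hormones ETR3 was higher under ACC by 0.79 ± 0.16 (adjusted p = 0.00893). Taken singly, it passed against ABA (1.27, adjusted p = 0.000423) and SA (0.91, adjusted p = 0.0292), and not against IAA (0.57, adjusted p = 0.07), BAP (0.36, adjusted p = 0.259) or JA (0.83, adjusted p = 0.0509). ETR4 read 1.87 to 1.94 on all 16 arrays and was not tested. ERS1 read 12.58 and 12.47 in the ACC arrays, against 12.40, 12.54, 12.39 and 12.33 in the control arrays, a change of 0.11 with an interval of -0.13 to 0.35 (adjusted p = 0.669).

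ERS2 lay lower under ACC, at 5.44 and 5.64, against 6.60, 6.86, 5.62 and 6.57 in the control arrays, with the groups overlapping. The change was -0.88 ± 0.35 log2 units (adjusted p = 0.284), -1.19 against control1 (adjusted p = 0.0363) and -0.56 against control2 (adjusted p = 0.681). In direct comparisons ERS2 was lower under ACC than under IAA (-1.81 ± 0.41, adjusted p = 0.0129), BAP (-1.91 ± 0.41, adjusted p = 0.0191) and the mean of the other 5 hormones (-1.08 ± 0.32, adjusted p = 0.046). The differences from ABA (-0.91, adjusted p = 0.0964), SA (-1.11, adjusted p = 0.179) and JA (0.33, adjusted p = 0.858) did not pass. By poly-A and actin signal, the ABA, SA and JA arrays lay with those of ACC and control2, and the IAA and BAP arrays with control1. Between the control sets, control2 minus control1, ERS2 differed by -0.63 (adjusted p = 0.25). The part of this split in the ERS2 differences was not tested. Under ABA, ETR3 fell by 0.58 ± 0.18 (adjusted p = 0.0174), and the differences were 0.27 ± 0.11 for ERS1 (adjusted p = 0.0657) and 0.04 ± 0.35 for ERS2 (adjusted p = 0.948). Under JA the differences were -1.21 ± 0.35 for ERS2 (adjusted p = 0.0707), -0.33 ± 0.11 for ERS1 (adjusted p = 0.116) and -0.14 ± 0.18 for ETR3 (adjusted p = 0.702). All changes of this kind share the 4 control arrays, and whether the receptors differ from one another in their change was not tested.

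**Figure D4:**
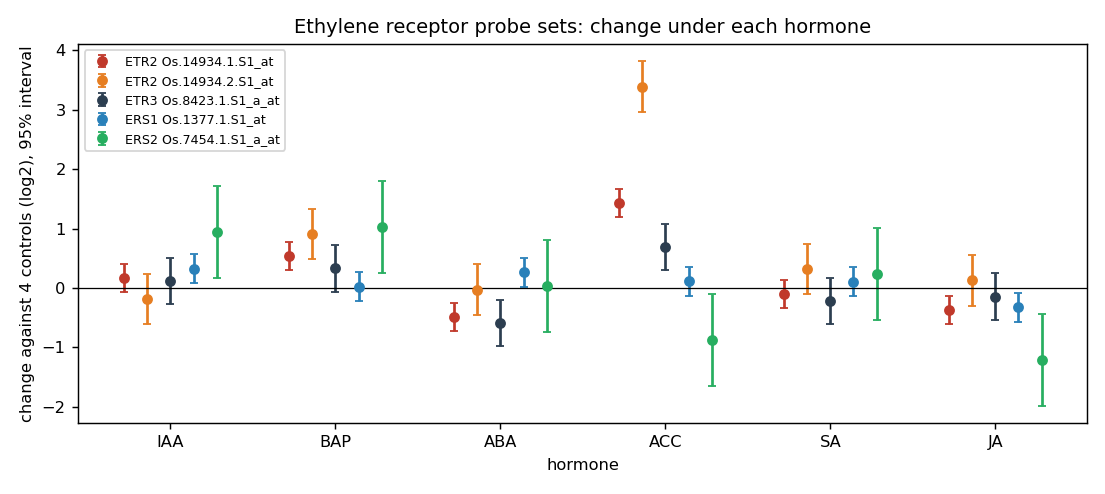
Change of the tested ethylene receptor probe sets against the 4 control arrays under each hormone (log2), with limma's 95% interval. Under ACC the ETR2 probe sets lie at 1.43 and 3.39, ETR3 at 0.69, ERS1 at 0.11 and ERS2 at -0.88.

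Beyond the receptors, the ethylene genes that could be matched by name were the signalling genes EIN2 and MHZ6 (EIL1, of the EIN3 family), 9 genes of ethylene synthesis and the methionine cycle that feeds it, and 13 genes listed as ethylene-responsive factors. With the 5 receptors, 29 genes were on the array and 23 were tested, 1 probe set each. Under ACC 1 of the 23 passed, ETR2, and 22 did not, beside 0.295% of all tested probe sets passing as higher and 0.32% as lower. The count was 11 against control1 alone, 1 against control2 alone and 9 with array weights, beside 5767, 82 and 3628 of all tested probe sets. The median change of the 23 was 0.09 log2 units, and that of all tested probe sets was 0.00. The rule for naming further genes therefore named none, and those that follow were chosen after their values were seen. EIN2, the membrane protein between the receptors and the transcription factors, read 8.29 and 8.91 in the ACC arrays, against 9.31, 9.22, 9.10 and 9.07 in the control arrays, a change of -0.58 ± 0.16 (adjusted p = 0.147). ACS2, an ACC synthase gene, read 7.89 and 8.36 in the ACC arrays, against means of 7.53 in control2 and 6.31 in control1. Its difference was 1.81 against control1 (adjusted p = 0.00503) and 0.60 against control2 (adjusted p = 0.649), and against all 4 controls the adjusted p was 0.237. For ACO1, an ACC oxidase gene, the difference was -0.86 ± 0.47 (adjusted p = 0.418), or -1.56 against control1 (adjusted p = 0.0114) and -0.17 against control2 (adjusted p = 0.942). For MHZ6 it was 0.14 ± 0.10 (adjusted p = 0.547).

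Under the other hormones the 23 ethylene genes gave 0 higher and 0 lower for IAA, where 2.4% of all tested probe sets were higher and 1.74% lower, and for JA, where 3.09% were higher and 2.87% lower. BAP gave 1 higher, ETR2, and 0 lower, where 0.817% of all were higher and 0.469% lower. Under SA 2 were higher and 0 lower, ERF42 (DREB2B, of the dehydration-responsive element binding factors) by 0.89 ± 0.25 log2 units (adjusted p = 0.0423) and SK2 by 0.74 ± 0.20 (adjusted p = 0.037). Against the control sets alone ERF42 was at 1.29 for control1 (adjusted p = 0.000304) and 0.49 for control2 (adjusted p = 0.0907), and SK2 at 0.51 for control1 (adjusted p = 0.06) and 0.98 for control2 (adjusted p = 0.00663). The background was 4.53% of probe sets higher and 4.67% lower. Under ABA 3 were higher and 7 lower, beside 21.2% and 26.9% of all tested probe sets. The 3 were ERF40 (DREB2A) at 2.09 ± 0.29 (adjusted p = 8.55e-05), SK2 at 0.65 ± 0.20 (adjusted p = 0.017) and MHZ6 at 0.27 ± 0.10 (adjusted p = 0.0486). MHZ6 passed against neither control set alone (adjusted p = 0.0551 for control1 and 0.105 for control2). SK2 (0.0799) and SAM1 (0.0973) did not pass against control1, nor EIN2 (0.125) and EREBP1 (0.0869) against control2. With ETR2 and ETR3, the 7 lower ones were EIN2 (-0.45), the S-adenosylmethionine synthetase genes SAMS2 (-0.84) and SAM1 (-0.30), MTK1 of the methionine cycle (-0.88) and EREBP1 (-0.31). The probe sets of SAMS2 disagreed, since its other one, of lower signal, rose by 2.71 under ABA (adjusted p = 7.1e-06). The names SK1 and SK2 were listed for submergence factors, and the gene records hold no other name, so whether the matched genes are those factors is not settled. LG2, listed with the factors, carries a bZIP name in its record, and every tested gene with an ERF number carries a DREB name there. The records of ARD1 and ARD2, listed with synthesis, also hold heat shock factor names. The counts of the 23 thus hold for genes matched by name, and whether each acts in the ethylene pathway was not tested.

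Of 1152 named genes whose 8 group means spanned at least 1 log2 unit, ETR3 had the pattern most like that of the first ETR2 probe set, with Pearson r = 0.94 over the 8 group means and 0.81 over the 16 arrays. With the ACC group left out, r over the remaining group means was 0.92. ETR3 was the 1 gene with r above 0.9. The second ETR2 probe set had r = 0.91 with the first, but all its group means except that of ACC lay under the floor. Its r without ACC was not computed. Next was PDC, which encodes pyruvate decarboxylase of fermentation, with r = 0.90 (0.69 without ACC). PDC changed by 0.65 log2 units under ACC (adjusted p = 0.0198). OsPIN5, of the PIN auxin transporter family, had r = 0.80 (0.59 without ACC), KPHMT1 r = 0.78 (0.74) and the glutaredoxin gene GRXC10 r = 0.78 (0.78). Their changes under ACC were 0.97, 0.51 and 1.04 and did not pass (adjusted p = 0.568, 0.405 and 0.219). Each gene was taken by its probe set of highest r, so a lower r on another probe set of a gene is not seen here. Taken so, the lowest values were those of JAZ11, a jasmonate signalling repressor gene (r = -0.77), SPL2 (-0.75), TOM20 (-0.73), FTSH3 (-0.72) and CAX1a (-0.72). That of CAX1a was -0.13 without ACC. These coefficients describe 8 group means of the same 16 arrays and carry no test.

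**Figure D5:**
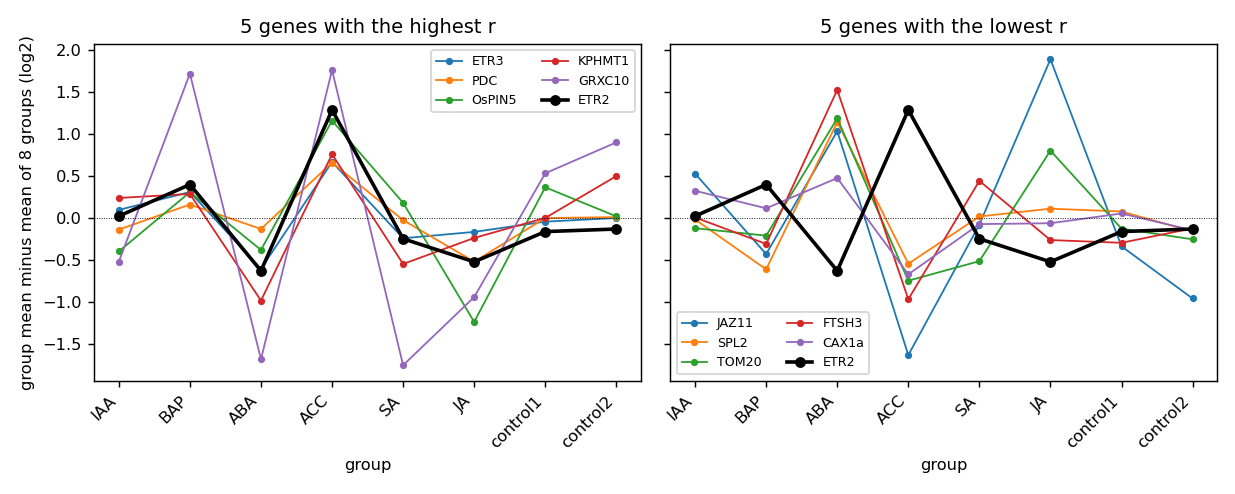
Group means of ETR2 (black, first probe set) and of the 5 named genes with the highest and the 5 with the lowest Pearson r over the 8 groups, each centred on its own mean (log2). Each gene was taken by its probe set of highest r. ETR3 follows ETR2 most closely, with r = 0.94, and JAZ11 is the most opposed of those shown, with r = -0.77.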

How the data were processed

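Per the series' design text, 5 µg of total RNA from each of 2 biological replicates went onto an Affymetrix array, and per the labels TRI reagent was the extractant and biotin the label. The deposited log2 values, 1 per probe set and array, were made by the authors with GCRMA, which the submitters' processing notes name without a version or settings. That they are log2 was read from their range (0.975 to 16.5). Arrays have no depth, and their number limits the precision. Of 57381 probe sets, 123 Affymetrix controls and 64 reporters were left out. The platform annotation gave 22436 rice probe sets 1 gene, 95 several and 34663 none, and none was named from several. Symbols came from the RefSeq gene table (assembly ASM3414082v1), which held all 17905 genes; its coordinates were not used.

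A linear model was fitted to the 24100 probe sets above log2 5 in at least 2 arrays (limma 3.58.1 in R 4.3.3, lmFit and eBayes with an intensity trend), two-sided, in 7 groups with the 4 controls as 1 (9 residual degrees of freedom), and in 8 groups for control sets, neighbours and single control sets (8 degrees). Promoter motifs were not searched, since no sequence was used here. The procedure was tested on simulated data. Lists were matched by symbol or synonym, with names fitting several genes left out and 1 probe set per gene (the highest mean); shoot and root markers were handled likewise. Named genes followed a written rule: all receptors, list members passing under ACC, and the 5 highest and 5 lowest Pearson r with ETR2, each gene by its probe set of highest r. Genes outside it are marked as such. The gene, the lists and the tests were chosen with earlier results of these data known. The main fit did not pair samples by replicate number. Over the 28 pairs of groups, same-numbered deviations correlated between -0.18 and 0.45, with 10 above 0.1, so a pairing of some groups is not excluded. Alternatives were other control sets, samples, normalizations, filters, variance priors, array weights, a replicate block and leaving out each array.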

Additional observations from a re-analysis of the deposited data

Results flagged for a closer look

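Over the 4 control arrays, 33 probe sets of ethylene and similar-pattern genes named or counted here were checked for an array far from the others. Of these 5 had one, and chance gives about 1 in 20. None was an ETR2 probe set. JAZ11 was at 10.33 in control2 replicate 2, against 11.53 to 11.58 in the other control arrays. SPL2 was at 10.76 there, against 11.18 to 11.25, TOM20 at 3.78, against 4.02 to 4.03, and ERF26 at 5.77, against 5.35 to 5.41. SK1 was at 10.31 in control2 replicate 1, against 9.76 to 9.85. Without control2 replicate 2 the ACC change of the first ETR2 probe set was 1.41 log2 units.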

How the results depend on the processing

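The ACC rise of the first ETR2 probe set kept its direction in 17 alternatives and passed in 16 (1.40 to 1.47 log2 units; 1.41 to 1.47 without 1 array), the exception being the fit of the treated and control arrays alone (1.43, adjusted p = 0.0964). The second passed in all 16 that tested it (3.28 to 3.51), and a floor of 7 left it out. Its control values lay under the main floor, and wherever a filter was used it was tested only through its ACC arrays. These passes therefore do not settle the size of its rise, which depends on how the lowest values were corrected. The ABA fall passed in all 17 (-0.51 to -0.45). The BAP rise lost its call against control1 alone (0.56), with the treated and control arrays alone (0.55, adjusted p = 0.251), with median centring (0.59, adjusted p = 0.0518) and with no filter (0.55, adjusted p = 0.0509), and without control1 replicate 1 (adjusted p = 0.0626), control2 replicate 2 (0.0682), BAP replicate 1 (0.196) or BAP replicate 2 (0.112), with 0.45 to 0.64 over all single arrays left out. The second probe set under BAP, with every BAP and control value under the main floor, lost its call in 9 of 16 alternatives (0.53 to 1.29). JA passed with array weights (-0.34, adjusted p = 0.0322) and without JA replicate 1 (-0.52 to -0.23 over the arrays left out). IAA and SA passed in none of 17. For each hormone these counts include the control set of like poly-A signal as an alternative. It repeats control1 alone for IAA and BAP and control2 alone for the other hormones, so that fit is counted again. The control set difference turned to -0.031 with median centring and ran from -0.059 to 0.12 without 1 array (-0.036 without control1 replicate 1, -0.059 without control2 replicate 1), never passing. The second probe set under ABA turned to 0.025 without control2 replicate 2 and 0.014 without ABA replicate 1, in a range of -0.081 to 0.025 without 1 array. One pair of neighbours passed in all but 1 fit, that without JA replicate 1, in which 2 did.

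Counts of the 23 ethylene genes that passed moved with the setting, and so did those of all tested probe sets. Against control1 alone the latter were 5767 for ACC, 263 for BAP, 6908 for SA and 5759 for JA. Against control2 alone they were 7627 for IAA, 5788 for BAP and 1639 for JA. With array weights they were 3628 for ACC, 14903 for ABA, 8594 for SA and 5154 for JA. With the treated and control arrays alone they were 1 for ACC, 38 for BAP, 9692 for ABA and 525 for SA. The counts of the ethylene genes follow. For ACC (1) they were 11 against control1 alone, 9 with array weights, 0 with the treated and control arrays alone, and 1 to 2 without 1 array. For IAA (0) they were 8 against control2, 1 with no filter and 0 to 2 without 1 array. For BAP (1) they were 6 against control2, 0 against control1, with the treated and control arrays alone, with median centring and with no filter, and 0 to 1 without 1 array. For ABA (10) they were 6 with the treated and control arrays alone, 16 with array weights and 4 to 9 without 1 array. For SA (2) they were 5 against control1, 6 with array weights, 1 with median centring, no filter or the replicate block, 0 with the treated and control arrays alone and 0 to 3 without 1 array. For JA (0) they were 1 against control2, 7 against control1, 6 with array weights and 0 to 2 without 1 array. All probe sets that passed ran from 1 to 5767 for ACC, 176 to 7627 for IAA, 38 to 5788 for BAP, 7803 to 14903 for ABA, 525 to 8594 for SA (432 without 1 array) and 243 to 5759 for JA, beside 148, 998, 310, 11585, 2217 and 1436.

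The replicate number as a block left the ACC change of the first probe set at 1.43 (adjusted p = 0.000606) and BAP at 0.55 (adjusted p = 0.0412), and the second probe set under BAP at 0.91 no longer passed (adjusted p = 0.0675). The causes of these shifts were not tested.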
